A study of Mus musculus with 2 samples.

Results

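Neuroligins and the leucine-rich repeat transmembrane proteins (LRRTMs) are adhesion proteins of the postsynaptic membrane. Both families bind presynaptic neurexins across the synaptic cleft. NLGN1 and the LRRTMs act mainly at excitatory synapses, NLGN2 at inhibitory synapses and NLGN3 at both kinds. N6-methyladenosine (m6A) is a mark on RNA that the METTL3-METTL14 methyltransferase places within the motif DRACH, a 5-mer whose central A follows A or G and precedes C, with no C at its first base and no G at its last. In mRNA it is known to be dense in long internal exons and around stop codons and to be sparse close to exon junctions, where exon junction complexes sit on spliced RNA.

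The 7 genes described here, Nlgn1, Nlgn2, Nlgn3, Lrrtm1, Lrrtm2, Lrrtm3 and Lrrtm4, were chosen by gene family, with earlier counts from the same site lists in view, so their counts are a description and carry no test. Their members are the m6A sites that lie inside the annotated interval of each gene on its own strand. There were 467 such sites among 79355 in the cerebellum and 776 among 188295 in the cerebrum. The union held 1049 of the 219409 sites found in either tissue.

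The sites come from 2 libraries of GLORI, an assay in which glyoxal and nitrite deaminate unmethylated adenosines so that those still read as A are called m6A. One library was made from cerebellum and the other from cerebrum, both with poly(A)+ RNA of a single female mouse at postnatal day 0. This mouse was of the F1r cross, with a C57BL/6J (C57) mother and a PWK/PhJ (PWK) father. The X-linked Nlgn3 thus carried an allele of each strain if the sex label holds. Against that label, chromosome Y held 14 (cerebellum) and 30 (cerebrum) listed positions, out of 79355 and 188295 in all. Xist, the RNA of the inactive X of females, had 83 and 80 sites, which goes with the label. With 1 library per tissue, from the same animal, the tissues have no replicate, and every interval below is a 95% Wilson interval that covers counting error over sites or adenosines only. The site lists give positions without methylation rates or read counts, so depth is unknown, and a position that is not listed may be unmethylated, thinly covered or in an RNA that is not expressed. In bulk tissue, fewer cells of a type and less RNA per cell cannot be told apart.

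The cerebrum list was 2.37 times as long as the cerebellum list over the genome and 2.02 times as long over exons of coding genes. Of 11 forebrain marker genes, 4 had a site in the cerebellum and all 11 in the cerebrum, with 34 and 332 sites in total. Of 12 hindbrain marker genes, 7 had a site in the cerebellum and 5 in the cerebrum, with 51 and 28 sites. En1, En2, Barhl1 and Hoxb3 had 6, 9, 12 and 1 sites in the cerebellum and 0, 0, 1 and 0 in the cerebrum. The others with a site did not lean that way, with 16 and 19 in Cbln1, 4 and 4 in Barhl2, 3 and 3 in Gbx2, and 0 and 1 in Lmx1a. The defining markers Atoh1 and Pcp2 had none in either.

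Within the 2 families, several sites fell on the same codon of different genes, and these are shown first because they tie the motif, the protein and the site lists together. Each line gives 21 bases of the GRCm38 (mm10) genome, read 5′ to 3′ on the strand of the gene, with the listed adenosine in the middle and its 5-mer in capitals. Codons are counted from 1 at the start codon, and paralogs were matched by protein alignment. The middle base of 1 aspartate codon was listed in all 3 neuroligins and in both tissues, at codon 462 of Nlgn1 (chr3:25436167-25436187, minus strand), 437 of Nlgn2 (chr11:69827058-69827078, minus strand) and 457 of Nlgn3 (chrX:101318384-101318404, plus strand).
Nlgn1 codon 462: atgtatacTGACTgggctgat
Nlgn2 codon 437: atgtacacGGACTgggctgac
Nlgn3 codon 457: atgtatacGGACTgggcagac
A second aspartate codon was listed in all 3 genes but not always in both tissues. Nlgn1 codon 691 (chr3:25434088-25434108, minus strand) was listed in the cerebellum alone, Nlgn2 codon 672 (chr11:69825689-69825709, minus strand) in the cerebrum alone, and Nlgn3 codon 700 (chrX:101319813-101319833, plus strand) in both.
Nlgn1 codon 691: gatcagagGGACTactccaca
Nlgn2 codon 672: gactcgagGGACTactccacg
Nlgn3 codon 700: aaccctcgAGACTactccact
The third set lies at the start of exon 7 of Nlgn1 and of exon 6 of Nlgn2, with the listed adenosine only 2 nt from the exon junction. Nlgn1 codon 307 (chr3:25436631-25436651, minus strand) and Nlgn2 codon 282 (chr11:69827897-69827917, minus strand) were listed in both tissues. The letters before the junction are intron, and the 5-mer is the same in the spliced RNA. The aligned base of Nlgn3, in codon 302, lies in GGGCT, which is no DRACH motif, and was not listed.
Nlgn1 codon 307: ttcccataGGACTttttcaac
Nlgn2 codon 282: tcccaccaGGACTgttccaga

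Among the LRRTMs, Lrrtm3 and Lrrtm4 shared 3 coding positions at the same codon and base, each listed in both tissues and each on the same amino acid. These were codons 75, 110 and 179 of Lrrtm3 (chr10:64089152-64089172, chr10:64089047-64089067 and chr10:64088841-64088861, minus strand) and codons 76, 111 and 180 of Lrrtm4 (chr6:80021824-80021844, chr6:80021929-80021949 and chr6:80022135-80022155, plus strand).
Lrrtm3 codon 75: gcctccaaAAACTtaagtata
Lrrtm4 codon 76: gcattcagAAACTcaaatcca
Lrrtm3 codon 110: ggatacgcAGACTcaaagagt
Lrrtm4 codon 111: ggatccgcAGACTgaaagaat
Lrrtm3 codon 179: atcttccaAGACTgtcgcaac
Lrrtm4 codon 180: gtttttcaAGACTgccggaac
Lrrtm2 was listed at the position aligned with codon 110 in both tissues and at that aligned with codon 179 in the cerebrum. Lrrtm1 holds no DRACH at the positions aligned with codons 75 and 110. At that aligned with 179, in its codon 183, it reads GGACT and was listed in neither tissue.

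Nlgn1, the excitatory-synapse neuroligin, spans 906 kb of chromosome 3 (25426215 to 26332460, minus strand) and had the most sites of the 7 genes. Its site count was 165 for cerebellum and 351 for cerebrum, and 51 were common to the tissues. Most of them lay in introns, and only 53 and 80 lay on the spliced transcript of 11807 nt. Of these, 8 fell in the 5′ UTR, 28 in the coding sequence and 17 in the 3′ UTR in the cerebellum. The matching cerebrum counts were 11, 36 and 33. The 3′ UTR count was thus the one that differed most between the tissues.

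Nlgn2, the neuroligin of inhibitory synapses, is a compact gene of 14.7 kb on chromosome 11 (69823122 to 69837784, minus strand). Cerebellum gave 23 sites and cerebrum 30. All 23 cerebellum sites were listed in the cerebrum too, which held for no other gene with sites in both tissues. Counts by region were 2, 10 and 11 sites in the 5′ UTR, coding sequence and 3′ UTR in the cerebellum, and 2, 14 and 13 in the cerebrum, with 1 further cerebrum site in an intron.

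Nlgn3, an X-linked gene of 26.8 kb (chromosome X, 101299168 to 101325963, plus strand), had 51 cerebellum sites and 66 cerebrum sites, 43 of them shared. Its sites lay mostly in the 3′ UTR, where the cerebellum list had 34 and the cerebrum list 44, beside 15 and 18 in the coding sequence. The annotation places a noncoding transcript, Gm21986, on the same strand over part of the gene. Of the Nlgn3 sites, 31 and 35 also lie on exons of Gm21986, and the reads of the overlapping RNAs cannot be told apart.

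**Figure D1:**
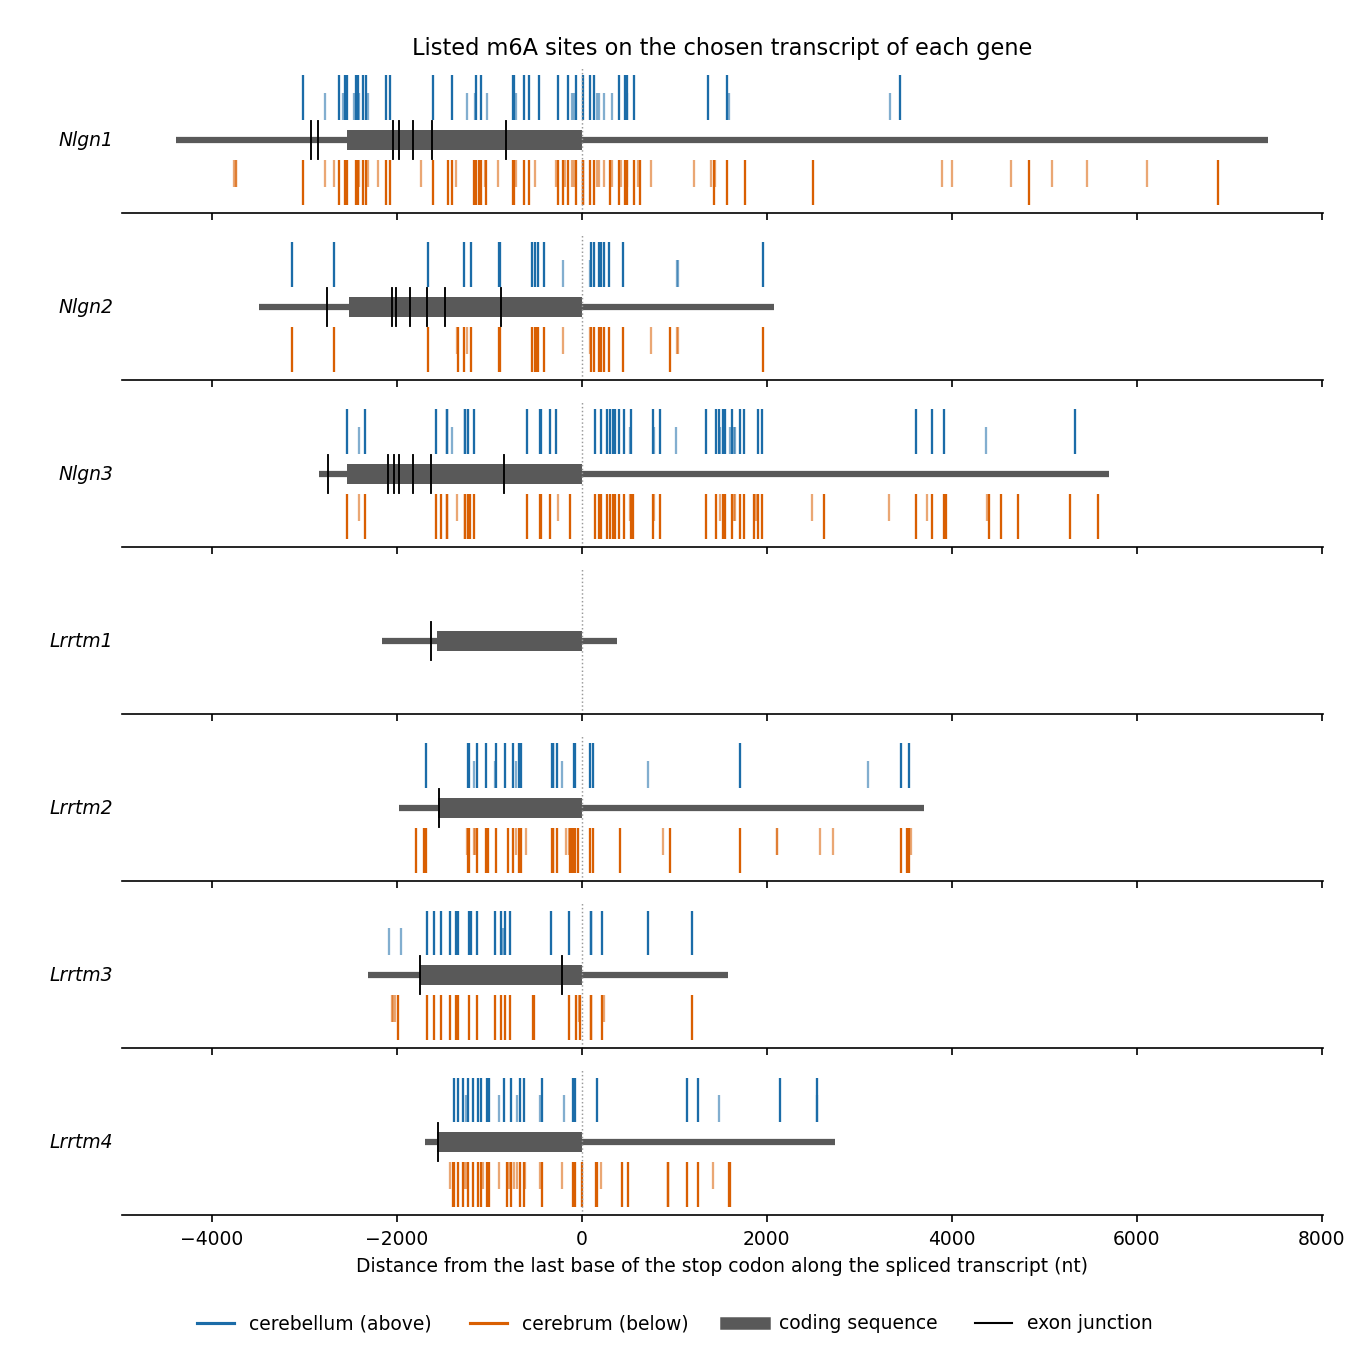
Maps of the spliced coding transcript of each gene, one row per gene, with distance from the last base of the stop codon in nt on the x axis, the coding sequence as the thick bar, the untranslated regions as the thin bar and exon junctions as black lines. Cerebellum sites are drawn above and cerebrum sites below, tall for DRACH and short and pale for other 5-mers. Sites of the LRRTMs crowd in the coding sequence, those of Nlgn3 run through the 3′ UTR, and Lrrtm1 has none.

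Lrrtm1, a 2-exon gene of 15.1 kb on chromosome 6 (77242689 to 77257791, plus strand), was without sites in the cerebellum list and had 1 in the cerebrum list. That site, at chr6:77243302-77243302, was in its 280-nt intron 1 within the motif GGACT. None of the 48 DRACH adenosines of its 2541-nt transcript was listed. Lrrtm1 is nested inside the alpha-catenin gene Ctnna2, which runs on the opposite strand, and 7 and 9 sites inside the Lrrtm1 interval lie on the Ctnna2 strand, where Ctnna2 as a whole had 160 and 362. The Lrrtm1 interval thus held sites on the Ctnna2 strand and nearly none on its own.

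Lrrtm2, a gene of 6.02 kb (chromosome 18, 35209003 to 35215024, minus strand), had 27 cerebellum sites and 45 cerebrum sites. It carries most of its transcript in 1 exon of 5241 nt. In the cerebellum 19 of its sites were coding and 7 in the 3′ UTR, and in the cerebrum 26 and 15. Lrrtm2 lies inside Ctnna1 on the opposite strand, where no site was found within the Lrrtm2 interval in either tissue.

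Lrrtm3 (162 kb, chromosome 10, 63928472 to 64090277, minus strand) had 37 and 51 sites. On its spliced transcript it had 23 and 27, of which 16 and 18 were coding and 5 and 5 in the 3′ UTR. Lrrtm3 lies inside Ctnna3, whose strand carried no site in either library. Lrrtm4 (791 kb, chromosome 6, 80018877 to 80810143, plus strand) had 164 and 232 sites, second only to Nlgn1. On its spliced transcript of 4435 nt there were 29 and 43, with 22 and 30 in the coding sequence and 7 and 13 in the 3′ UTR. As in Nlgn1, the other longest gene of the 7, most Lrrtm4 sites were intronic.

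Summed by family, the LRRTM sites lay mainly in the coding sequence and the neuroligin sites mainly outside it. The coding sequence held 72.2% (61.4 to 80.8) of the LRRTM exonic sites in the cerebellum and 64.9% (55.8 to 73.1) in the cerebrum. For the neuroligins the same share was 42.1% and 39.5%. By gene it was 52.8% and 45.0% in Nlgn1, 43.5% and 48.3% in Nlgn2, and 30.0% and 28.6% in Nlgn3, so the family sum does not describe Nlgn1 in the cerebellum. Among listed DRACH adenosines alone, 47 of 63 (cerebellum) and 54 of 81 (cerebrum) were coding in the LRRTMs. In the neuroligins 40 of 91 and 48 of 114 were, and over all coding genes 17434 of 43257 and 30818 of 73774. The neuroligin share was thus close to that of all coding genes, and the LRRTM share lay above it. The shares of both families depend on the lengths of the regions. The 3′ UTR is 7423 nt in Nlgn1, 5701 nt in Nlgn3 and 2081 nt in Nlgn2. It is 3697 nt in Lrrtm2, 2743 nt in Lrrtm4 and 1586 nt in Lrrtm3. The counts were therefore next set against the adenosines that each region offers.

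A DRACH adenosine of the longest coding transcript was taken as called when it was listed. The 7 transcripts hold 898 of them, of which 154 (17.1%, 14.8 to 19.8) were called in the cerebellum and 195 (21.7%, 19.1 to 24.5) in the cerebrum, with 141 called in both. Over all coding genes with at least 1 exonic site, the background share was 5.81% (cerebellum) and 7.65% (cerebrum). As the genes were chosen with such counts known, and the reads behind each gene are unknown, the gap is given as a description.

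**Figure D2:**
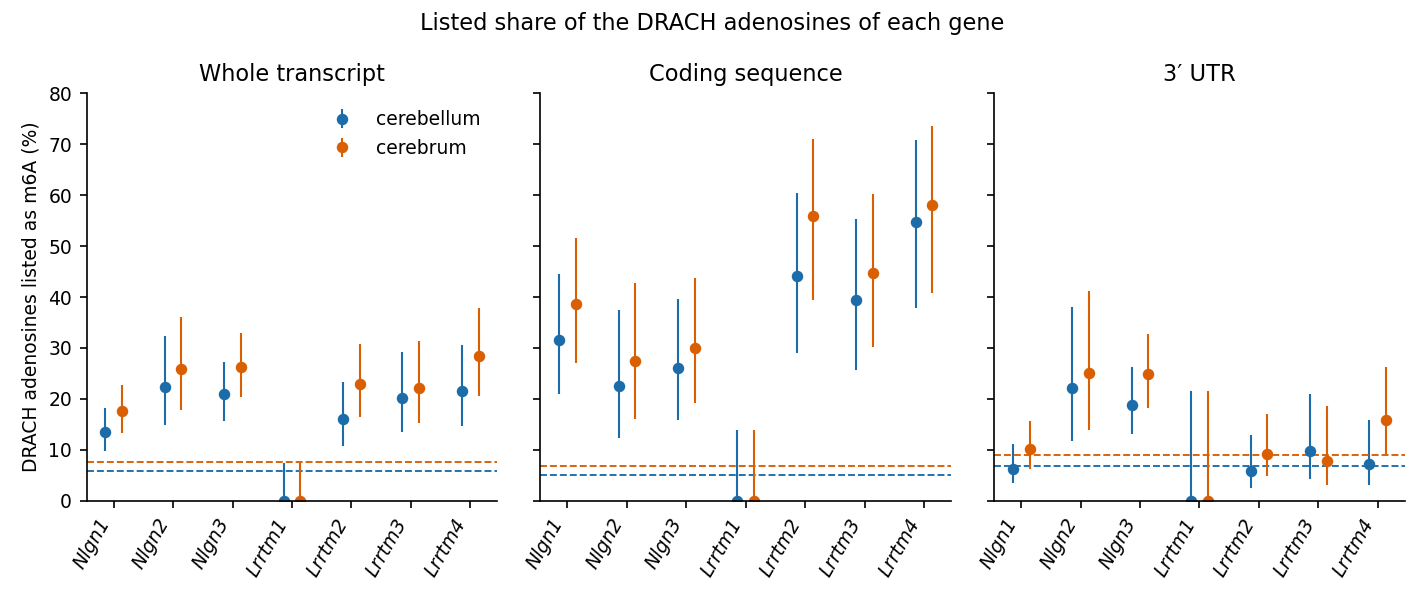
Share of DRACH adenosines that are listed, in percent on the y axis, for each gene over the whole transcript, the coding sequence and the 3′ UTR, with cerebellum and cerebrum as points, 95% Wilson intervals as bars and the background share over coding genes of each library as dashed lines. Over the whole transcript Lrrtm1 sits at 0 and the other 6 genes sit above both dashed lines, from 13.4% for Nlgn1 in the cerebellum to 28.4% for Lrrtm4 in the cerebrum.

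By gene, Nlgn1 had the lowest share of the 6 genes with exonic sites, at 13.4% (9.71 to 18.2) of 246 DRACH adenosines in the cerebellum and 17.5% (13.2 to 22.7) in the cerebrum. Nlgn2 had 22.4% and 25.9% of 85, and Nlgn3 20.9% and 26.2% of 187. Lrrtm2 had 16% and 22.9% of 131, Lrrtm3 20.2% and 22.2% of 99, and Lrrtm4 21.6% and 28.4% of 102. The intervals of these 6 genes overlap one another, and the order among neighbours was not the same in both tissues. Each of the 6 had a higher share in the cerebrum than in the cerebellum, as did the background.

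Set among the 8093 coding genes of the cerebellum with an exonic site and at least 20 DRACH adenosines, whose median share was 3.73%, Nlgn2 stood above 97.0% of genes, Lrrtm4 above 96.5%, Nlgn3 above 96.1% and Lrrtm3 above 95.7%. Lrrtm2 stood above 92.3% and Nlgn1 above 88.8%. Among 11209 such genes of the cerebrum, with a median of 4.84%, the 6 genes stood above 88.1% (Nlgn1) to 96.9% (Lrrtm4) of genes. By the number of exonic sites rather than the share, Nlgn1 came first of the 6, with more sites than 99.4% of genes in the cerebellum and 99.7% in the cerebrum.

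The gap to the background was widest in the coding sequence. There, 87 of 274 DRACH adenosines (31.8%, 26.5 to 37.5) were called in the cerebellum and 102 (37.2%, 31.7 to 43.1) in the cerebrum, against 5.01% and 6.73% over all coding genes. In the 3′ UTR the shares were 10.6% and 14.8% of 549, against 6.85% and 8.97%, and in the 5′ UTR 12% and 16% of 75, against 3.17% and 3.96%. In the background the 3′ UTR lay above the coding sequence, and in the 7 genes it lay below. The same holds for all genes within long exons, as given below.

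Lrrtm4 and Lrrtm2 had the densest coding sequences. In Lrrtm4, 17 of 31 coding DRACH adenosines (54.8%) were called in the cerebellum and 18 (58.1%) in the cerebrum. In Lrrtm2 there were 15 and 19 of 34 (44.1% and 55.9%), and in Lrrtm3 15 and 17 of 38 (39.5% and 44.7%). The 3′ UTR of the same 3 genes gave shares of only 5.75% to 9.80% in the cerebellum and 7.84% to 15.9% in the cerebrum, against 6.85% and 8.97% in the background of that region. The LRRTM pattern was therefore one of many listed adenosines in the coding exon and few in the 3′ UTR. Lrrtm1, with 24 coding DRACH adenosines and none called, did not share it.

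The neuroligins differed among themselves in the same respect. Nlgn1 resembled the LRRTMs, with 31.6% and 38.6% of 57 coding DRACH adenosines called against 6.29% and 10.1% of 159 in the 3′ UTR. In Nlgn2 the regions were even, with 22.5% and 27.5% of 40 in the coding sequence and 22.2% and 25% of 36 in the 3′ UTR. Nlgn3 had 26.0% and 30.0% of 50 in the coding sequence and 18.8% and 24.8% of 133 in the 3′ UTR. The high site count of the Nlgn3 3′ UTR therefore goes with both its length and a share that was higher than in the longer 3′ UTR of Nlgn1.

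Along the spliced transcript, site density ran from 4.13 per kb in Nlgn2 to 6.54 per kb in Lrrtm4 in the cerebellum, and from 5.21 per kb in Nlgn2 to 9.70 per kb in Lrrtm4 in the cerebrum. The median gap between neighbouring sites in the cerebellum ran from 52.5 nt in Nlgn1 and 53.5 nt in Lrrtm4 to 73.0 nt in Lrrtm2 and 92.5 nt in Lrrtm3. The widest gaps within the same transcripts were 506 nt (Lrrtm3) to 1738 nt (Nlgn1). In the cerebrum the median gap was shorter in each of the 6 genes, from 35.0 nt in Lrrtm2 to 72.0 nt in Lrrtm3.

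By exon, nearly all calls sat in long ones, but some long exons had few calls or none. In Nlgn1, exon 3 (811 nt, holding the start codon) had 10 of 18 DRACH adenosines called in each tissue, and all 10 were the same positions. Exon 7 (790 nt) had 4 and 8 of 17 and the last exon, exon 8 (8246 nt), 18 and 24 of 177. Exon 1 of Nlgn1, although 1457 nt long, had only 1 of 22 called in each tissue. Exons 2, 4, 5 and 6 of Nlgn1, of 60 to 213 nt, had none of 12 called. The densest 300-nt window of the transcript spans the start codon and contained 13 cerebellum and 11 cerebrum sites, with 8 of its 9 DRACH adenosines called in both.

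In Nlgn2, exon 7 (597 nt) had 4 and 5 of 13 DRACH adenosines called and the last exon (2958 nt) 12 and 14 of 47. Exons 1 and 2 of Nlgn2 (737 and 696 nt) had 1 of 7 and 1 of 6 called in each tissue. Its exon 6, of 193 nt, had 1 of 4 called in each tissue, the only call in an exon under 400 nt in the 7 genes. In Nlgn3, exon 7 (790 nt) had 7 and 9 of 23 called and the last exon (6545 nt) 30 and 38 of 151. The densest windows of Nlgn2 and Nlgn3 fell after the stop codon rather than at the start codon. In Nlgn2 the window from 95 to 394 nt past the stop codon held 7 sites in each tissue, and all 6 of its DRACH adenosines were called. In Nlgn3 the window lay from 279 to 578 nt in the cerebrum, with 8 of 9 called, and from 1450 to 1749 nt in the cerebellum, with 6 of 8. These windows, and that of Nlgn1, were picked by their number of listed sites, so high called shares within them follow from the choice.

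The LRRTMs encode most of the protein in 1 exon. Exon 2 of Lrrtm3 (1535 nt) had 14 of 30 DRACH adenosines called in each tissue, 12 of them the same, and its exon 3 (1796 nt) had 6 and 7 of 59. Exon 2 of Lrrtm4 (4296 nt) had 22 and 29 of 100 and that of Lrrtm2 (5241 nt) 20 and 27 of 121. By contrast, exon 1 of Lrrtm3 (565 nt) had 0 and 1 of 10 called, and exon 2 of Lrrtm1 (2015 nt) none of 40. Lrrtm4 has another annotated isoform, with a longer coding sequence and a shorter 3′ UTR. On that isoform 30.0% and 31.4% of 70 DRACH adenosines were called, and the coding counts of 22 and 30 sites were as before.

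Exon length moves with these shares in all genes, so the background was also restricted to exons of 400 nt or more. In such exons the 7 genes had 17.7% and 22.4% of DRACH adenosines called, against a background of 8.32% and 11%. For coding adenosines in exons of that length, the shares were 35.0% (29.3 to 41.1) and 41.1% (35.1 to 47.3), against 13.2% and 17.8%. In 3′ UTRs of such exons the background was 6.82% and 8.95%, so that in long exons the coding sequence lay above the 3′ UTR in all genes too. The ratio of the members to the background in the coding sequence was less here than over exons of any length. In shorter exons 1 of 33 was called in each tissue (3.03%), against 0.716% and 1.16%. The part of exon length in the gap was not tested, and the lists give no depth or expression to set beside what remains.

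Near exon junctions, 13 of the 82 DRACH adenosines of the 7 genes within 100 nt of a junction were called (15.9%, 9.51 to 25.3) in each tissue, against a background of 1.12% and 1.71%. The same 13 positions were called in both tissues. Nlgn1 had 6 of them, Nlgn2 4, Lrrtm3 2 and Nlgn3 1. In exons of 400 nt or more, the share was 12 of 52 (23.1%, 13.7 to 36.1), against 6.11% and 8.46%. From 100 to 200 nt, 18.4% and 34.2% of 38 were called, against 11.7% and 14.7%, and beyond 200 nt 17.2% and 21.7% of 778, against 7.89% and 10.5%. The cerebellum shares of the 7 genes thus lay close together at these limits. With limits of 150 and 300 nt they were 15.8%, 27.7% and 16.4%, so that the middle range stood above both others. In the cerebrum the middle range stood above both others under either pair of limits. The aligned pair at the start of Nlgn1 exon 7 and Nlgn2 exon 6, shown above, lay nearest to a junction.

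**Figure D3:**
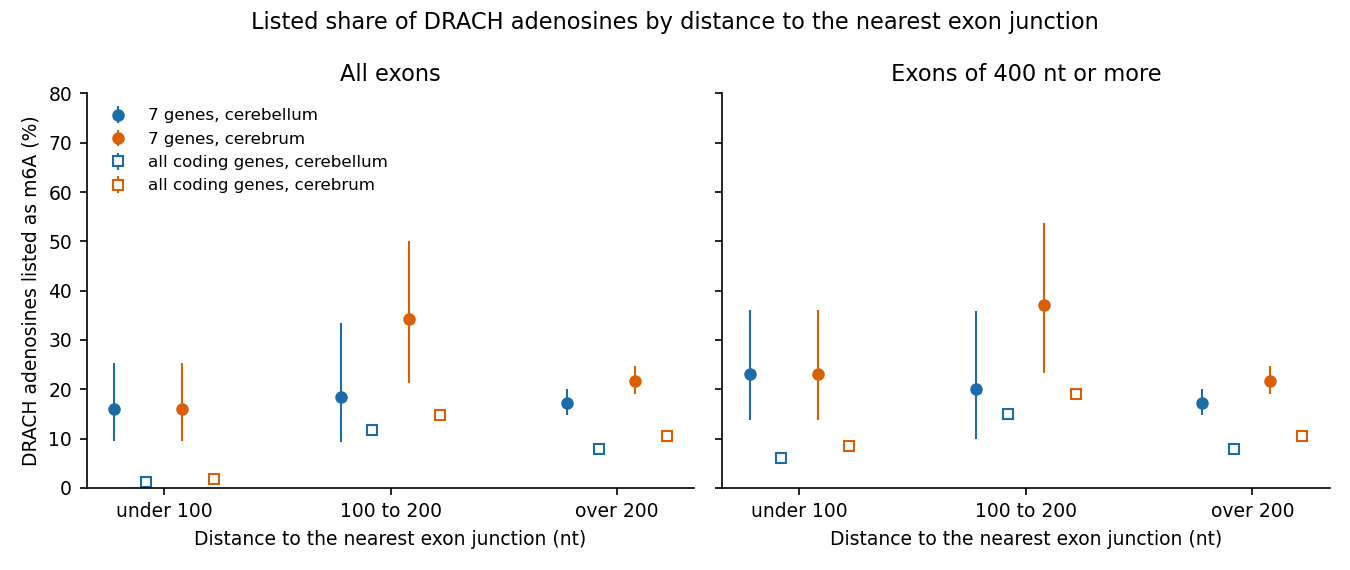
Share of DRACH adenosines that are listed, in percent on the y axis, by distance in nt to the nearest exon junction, over all exons on the left and over exons of 400 nt or more on the right. Filled points are the 7 genes with 95% Wilson intervals and open squares all coding genes with a site, in each library. Over all exons the open squares are lowest under 100 nt, at 1.12% and 1.71%, where the filled points are at 15.9% in both libraries.

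Around the stop codon, a window of 200 nt on either side held 26 of 205 exonic sites in the cerebellum (12.7%) and 39 of 286 in the cerebrum (13.6%). This window also holds 8.80% of the DRACH adenosines of the 7 transcripts, so that the share of sites was 1.44 and 1.55 times that of the motif. Over all coding genes with a site the same ratios were 2.08 and 1.82. In Nlgn1 the window held 9 of 53 and 11 of 80 exonic sites of any motif, a ratio of 5.97 and 4.83, and 5 and 6 of its 7 DRACH adenosines were called. In Nlgn2 the ratio was 2.96 and 2.34, and in Nlgn3 it was 0.312 and 0.742, with 1 and 3 of 12 DRACH adenosines called. The ratios of single genes depended on the window. At 400 nt on either side they were 3.09 and 2.90 in Nlgn1, 3.29 and 2.61 in Nlgn2 and 1.46 and 1.42 in Nlgn3, so that the value of Nlgn3 moved from below 1 to above it. With 7 and 12 adenosines in the narrower window, each ratio rests on few positions.

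The DRACH site nearest to the stop codon that was listed in both tissues shows this spacing. Distances are counted from the last base of the stop codon, and the lines give the genome sequence as above. It lay 14 nt past the stop codon in Nlgn1 (chr3:25433614-25433634, minus strand), 104 nt past it in Nlgn2 (chr11:69825089-69825109, minus strand) and 142 nt past it in Nlgn3 (chrX:101320394-101320414, plus strand). In Lrrtm3 it lay 99 nt past the stop codon (chr10:63929949-63929969, minus strand), and in Lrrtm4 74 nt before it (chr6:80023082-80023102, plus strand).
Nlgn1: gatgagagAGACAaactgatt
Nlgn2: gatttgtcAGACTtcgtggag
Nlgn3: acagatgtGGACAtgcacccg
Lrrtm3: caaaacaaAAACAaaactccc
Lrrtm4: gaactctgAGACCatggatat

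At the far end of the 3′ UTR, the last Nlgn1 site lay 3445 nt past the stop codon in the cerebellum and 6879 nt past it in the cerebrum, of a 3′ UTR of 7423 nt. In Nlgn3 the last sites lay at 5328 and 5582 nt of 5701 nt, and in Nlgn2 at 1956 nt of 2081 nt in both tissues. The sites of Nlgn2 and Nlgn3 therefore ran to near the annotated end in both tissues, while those of Nlgn1 did so in the cerebrum alone. In Lrrtm4 the last site lay farther out in the cerebellum (2544 nt) than in the cerebrum (1600 nt).

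The tissues shared most exonic DRACH sites. Of those called in the cerebellum, 141 (91.6%, 86.1 to 95) were called in the cerebrum as well, and these were 72.3% (65.6 to 78.1) of the cerebrum calls. Over all coding genes the same shares were 83.7% and 49.0%. By gene, the share of cerebellum calls also found in the cerebrum ran from 85.0% in Lrrtm3 to all 19 in Nlgn2. Exonic sites outside DRACH were shared less often, with 30 in both tissues, 58.8% of those in the cerebellum and 33.0% of those in the cerebrum, beside 40.3% and 13.5% over all coding genes. In Lrrtm3 none of the 3 cerebellum and 5 cerebrum sites of this kind was shared, and in Lrrtm2 2 of 6 and 14 were.

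**Figure D4:**
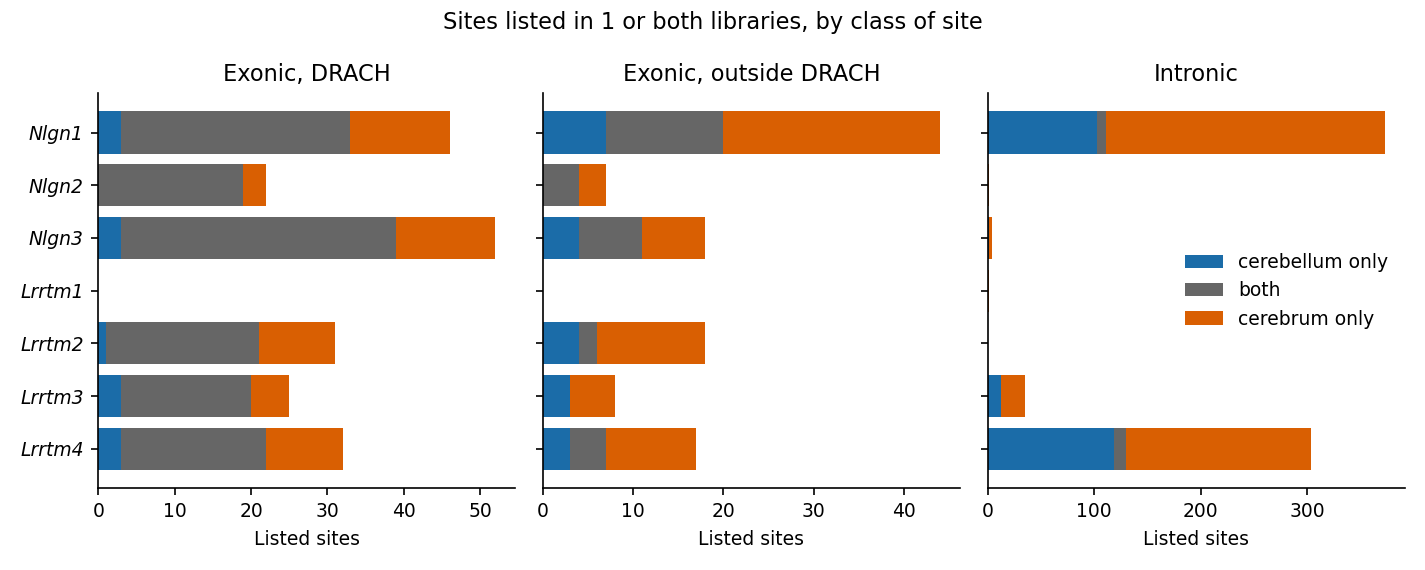
Number of listed sites of each gene on the x axis, split into those in the cerebellum library alone, in both and in the cerebrum library alone, for exonic DRACH sites, exonic sites outside DRACH and intronic sites, with an x scale of its own in each panel. The part in both libraries is the longest for exonic DRACH sites and a thin strip for introns, where it holds 8 sites in Nlgn1 and 11 in Lrrtm4.

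By gene, DRACH made up the smallest part of exonic sites in Nlgn1, at 62.3% in the cerebellum and 53.8% in the cerebrum. In the other 5 genes with exonic sites it made up 75.9% (Lrrtm4) to 87.0% (Lrrtm3) in the cerebellum and 67.4% (Lrrtm4) to 81.5% (Lrrtm3) in the cerebrum. Most of the remaining Nlgn1 sites in the cerebellum, 16 of 20, had a 5-mer that differs from DRACH at 1 base, and 11 sites of that class were listed in both tissues. All 17 exonic Lrrtm3 sites that were in both tissues had DRACH, as did 20 of 22 in Lrrtm2 and 36 of 43 in Nlgn3.

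Few intronic sites were shared. Of 255 in the cerebellum and 482 in the cerebrum, 19 were in both, which is 7.45% and 3.94%. Over the introns of all coding genes the shares were 12.2% and 3.50%, so that low overlap was common to intronic sites. The motif went with this. DRACH made up 75.1% and 68.2% of exonic sites and 82.5% of those in both tissues, but 14.1% and 10.4% of intronic sites, beside 15% and 12.6% in the introns of all coding genes. Exonic sites in and outside DRACH numbered 154 and 51 in the cerebellum, 195 and 91 in the cerebrum, and 141 and 30 in both. Over all coding genes they numbered 43012 and 14117, 73402 and 41989, and 36002 and 5688. The exonic shares of the 7 genes were thus near those of all coding genes. Of the 19 shared intronic sites, 13 were in DRACH (68.4%). In introns, 14.9% and 14.3% of sites were the A of ATC. No share over the introns of all coding genes stands beside these values, so they cannot be read as particular to the 7 genes.

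These intronic sites lay almost wholly in the long introns of Nlgn1 and Lrrtm4. Nlgn1 intron 5 (473 kb) held 92 and 192 sites with 7 in both, and its intron 3 (213 kb) held 17 and 59 with none in both. Per 100 kb these were 19.5 and 40.6 sites in intron 5 and 7.98 and 27.7 in intron 3. Lrrtm4 intron 2 (786 kb) held 130 and 185 sites, 16.5 and 23.5 per 100 kb, with 11 in both, 9 of them in DRACH. Lrrtm3 intron 2 (158 kb) held 12 and 22 with none in both. Several short transcripts of unknown coding status are annotated inside the Lrrtm4 intron on the same strand, and Gm44240, Gm44241 and Gm44242 had 2 sites each in each tissue.

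The tissue difference in list length was also uneven over the members. Cerebrum sites outnumbered cerebellum sites 1.40 times on exons of the 7 genes, against 2.02 times over exons of all coding genes, and 1.89 times in their introns. On exons the ratio ran from 1.17 in Lrrtm3 and 1.26 in both Nlgn2 and Nlgn3 to 1.48 in Lrrtm4, 1.51 in Nlgn1 and 1.63 in Lrrtm2. All 6 ratios were under that of all coding genes. In introns, Nlgn1 had 2.43 times as many sites in the cerebrum and Lrrtm4 1.42 times as many. Since neither depth nor expression is known, the lists do not say whether a site seen in 1 tissue was unmethylated in the other.

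Within DRACH, the share called depended on the 5-mer. GGACT was called at 36.4% and 54.5% of its positions, against 14.7% and 19.9% in the background, and GGACA at 37.0% and 47.8%, against 8.92% and 12.4%. The GGACA share came from the neuroligins, with 16 and 19 of 33 called, while in the LRRTMs 1 and 3 of 13 were (7.69%, 1.37 to 33.3, and 23.1%, 8.18 to 50.3). AGACT reached 35.0% and 40.0%, against 12.6% and 15.8% in the background, and GAACT 35.7% in each tissue, against 13.7% and 17.1%. At the other end, TAACC was called at none of 26 positions in either tissue and AAACC at none of 47 in the cerebellum and 2.13% in the cerebrum. TAACA was likewise at 0 of 42 in the cerebellum and had 2.38% called in cerebrum. These were also the 3 5-mers with the lowest background shares, at 0.274%, 0.649% and 0.810% in the cerebellum. The motifs that were seldom called in other genes were thus seldom called in the 7 genes as well. In the cerebellum the intervals of the 7 genes reached 12.9% for TAACC, 7.56% for AAACC and 8.38% for TAACA. So few positions cannot place these shares above or below the background.

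Coding sites fell on codon positions much as the motif does. In the neuroligins 65.0% and 62.5% of coding DRACH sites were on the second codon base, which holds 59.2% of the coding DRACH adenosines. In the LRRTMs 42.6% (29.5 to 56.7) and 38.9% (27.0 to 52.2) were on base 3, which holds 29.9%. All 4 intervals cover the motif's own share.

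Over the whole alignments, the neuroligin proteins were 69.4% (NLGN1 and NLGN2), 72.7% (NLGN1 and NLGN3) and 67.7% (NLGN2 and NLGN3) identical, and 4, 5 and 6 codons had a site in both genes of the pair. All of these pairs were on the same codon base. Aligned DRACH adenosines common to both genes numbered 18, 17 and 20, of which 3, 3 and 5 were listed in both genes. At some further neuroligin codons the motif and the list went together. At codons 415 of Nlgn2 and 435 of Nlgn3 both genes read GGACA and were listed in both tissues, while the aligned Nlgn1 codon, 440, reads TGATA and was not listed. The same held at codons 703 of Nlgn2 (GGACC) and 731 of Nlgn3 (GGACA), where Nlgn1 codon 722 reads GGATA, and at 669 (TGACT) and 697 (GAACC), where Nlgn1 codon 688 reads GGATC. Nlgn1 was thus without a DRACH motif and without a site at these 3 codons. A motif alone did not go with a site in every case. Nlgn2 codon 407 and Nlgn3 codon 427 both read TGACT, and only the Nlgn3 position was listed, in both tissues. At the aligned Nlgn1 codon, 432, the 5-mer CGACT lies outside DRACH and was listed in the cerebellum. Other aligned positions were listed outside DRACH as well. These were Nlgn3 codon 44 (TCACT) in both tissues, and Nlgn1 codon 676 (GGATG) and Nlgn2 codon 425 (GGACG) in the cerebrum. Near the C terminus, Nlgn1 codon 797 (TGACA) was listed in both tissues and Nlgn3 codon 804 (TGACT) in the cerebrum. LRRTM3 and LRRTM4 were 64.7% identical with 4 shared codons, 3 of them on the same base. LRRTM2 was 44.9% identical to LRRTM3 and 44.2% to LRRTM4, with 6 and 8 shared codons, 4 and 5 of them on the same base. LRRTM1 was 48.1% to 49.7% identical to the others, and with no exonic site it could share no codon. In each neuroligin pair, most DRACH adenosines kept in both genes were not listed in both. Lrrtm2 and Lrrtm4 differed, with 4 of 6 listed in both. Lrrtm2 with Lrrtm3 had 3 of 8, as did Lrrtm3 with Lrrtm4. The pairs of Lrrtm1 with Lrrtm2, Lrrtm3 and Lrrtm4 had 0 of 7, 2 and 4.

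The same counts were taken for 44 other genes of synaptic organisation, from a list of extracellular partners, other postsynaptic adhesion proteins and intracellular scaffolds. The share of DRACH adenosines called was 14.5% and 17.4% over 16 extracellular partners, such as the presynaptic neurexins and the MDGA proteins, which bind neuroligins. It was 16.3% and 22.8% over 21 other postsynaptic organisers, such as the SLITRKs, and 3.78% and 5.79% over 7 intracellular partners, such as PSD-95 family scaffolds and gephyrin. The 7 neuroligin and LRRTM genes, at 17.1% and 21.7%, lay beside the other adhesion proteins rather than the scaffolds. These shares are over whole transcripts, with no restriction by exon length or region. The part of exon length in the differences between the groups was not tested. Of them, 6 of 7 were above the background, as were 11 and 12 of the 16 partners, 15 and 16 of the 21 postsynaptic organisers, and 3 and 2 of the 7 intracellular partners.

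**Figure D5:**
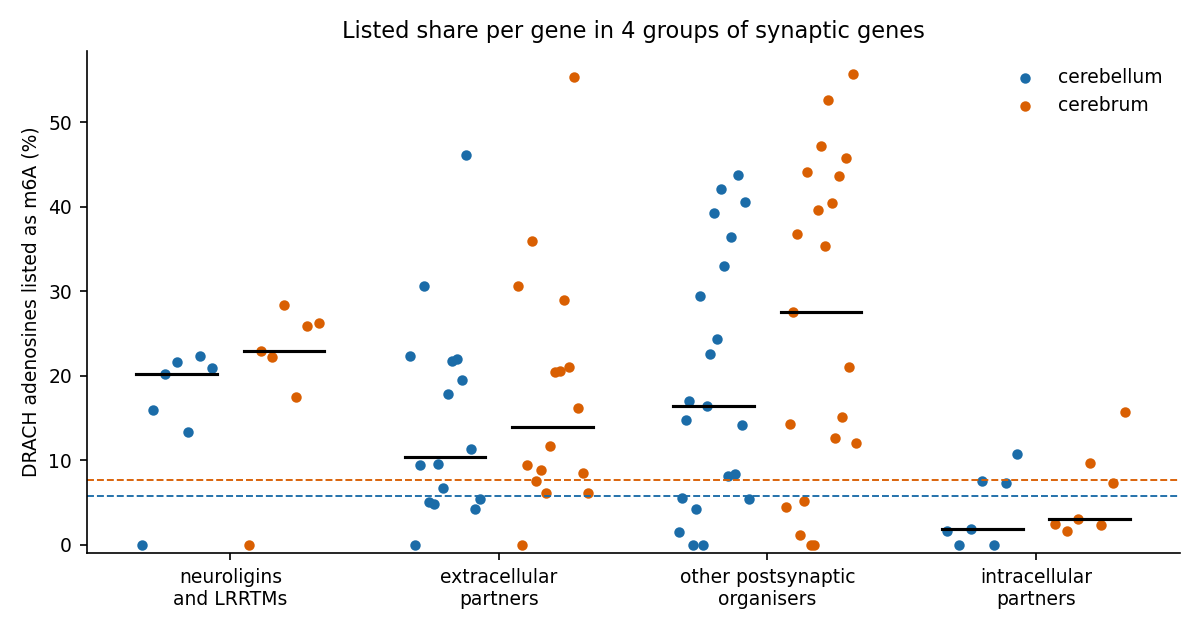
Share of DRACH adenosines that are listed, in percent on the y axis, with one point per gene and library, for the 7 neuroligin and LRRTM genes and for the 3 groups of other synaptic genes. Black lines are group medians and dashed lines the background share over coding genes in each library. The medians in the cerebellum are 20.2% for the 7 genes, 10.4% for partners, 16.4% for other postsynaptic organisers and 1.84% for intracellular partners.

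In exonic site number, the leading organiser genes were Slitrk5 with 55, Slitrk1 with 51, and Mdga2 and Ntrk3 with 50 each in the cerebellum, and Ntrk3 with 82, Slitrk5 with 78 and Mdga2 with 69 in the cerebrum. These encode adhesion proteins, an NT-3 receptor (Ntrk3) and a protein that blocks neuroligin binding to neurexin (Mdga2). Nlgn1, with 53 and 80, lay among them. Nlgn3 had 50 in the cerebellum, as many as Mdga2 and Ntrk3, and 63 in the cerebrum, fewer than the genes named there. In the cerebrum the medians over genes were 22.9% for the 7, 13.9% for partners, 27.5% for other postsynaptic organisers and 3.07% for intracellular partners. Like Lrrtm1, the cerebellin gene Cbln2 and the adhesion gene Lrfn2 had no exonic site in either tissue.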

How the data were processed

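The authors made GLORI libraries from poly(A)+ RNA of early postnatal cerebellum and cerebrum, and called m6A sites by running GLORI-tools against mm10 and against a PWK version of that genome. Adenosines were kept where the rate exceeded 0.1 and more than 8 reads covered them. The union of the calls of both genomes was deposited for each library as site positions with strand. The deposited files hold no methylation rates, counts or depths, so the precision of a call cannot be given, and a motif that only the PWK allele carries is not seen in the reference sequence used here.

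Here, sites were placed on GENCODE M21 gene models (GRCm38), and the coding transcript of the greatest spliced length was used for each gene. Each 5-mer was read from the genome on the strand of the gene. Sites were counted by region, exon, motif, distance to a junction and distance to the stop codon. The called share is the number of listed DRACH adenosines over all DRACH adenosines of the transcript. Its background is the same share over all coding genes with at least 1 listed exonic site in the library. Intervals are 95% Wilson intervals. Proteins were translated from the gene models and aligned in pairs (BLOSUM matrix, gap open penalty 11, extension penalty 1). Analyses used Python 3.11.15, pysam 0.24.0, numpy 2.4.6, Biopython 1.88 and matplotlib 3.10.9, and the counting was tested on simulated data. The libraries were grouped by tissue as labelled, with 1 library each, so no test between tissues was made. The names of both deposited site lists carry the same abbreviation beside the tissue, so the tissues were checked on marker genes.

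The genes, the gene lists and the sites to be printed were chosen with earlier results of these data known. Sites shown with sequence were those listed at the same codon and base of paralogs and, per gene, the DRACH site in both libraries nearest the stop codon. Organiser genes named are the 3 with the most exonic sites per library. Alternatives were exons only, other isoforms, another background, wider windows and other limits of distance. The genes most similar to Nlgn1 in site counts are not reported here.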

Additional observations from a re-analysis of the deposited data

How the results depend on the processing

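No paired analysis was possible because each tissue has 1 library and no test was made. Restricting the count to annotated exons moved Nlgn1 to 54 cerebellum and 81 cerebrum sites, Lrrtm3 to 24 and 29, Lrrtm4 to 34 and 47, and Lrrtm1 in the cerebrum to 0. The DRACH share of all sites of the 7 genes, 41.8% and 32.5% beside 62.1% and 46.7% over the whole lists, became 75% and 68.7% on exons, and 81.4% for sites in both libraries. The share of sites found in the other library, 41.5% of the cerebellum and 25% of the cerebrum beside 60.8% and 25.6% over the whole lists, became 81.0% and 62.7% for DRACH sites. It became 54.6% of the 355 cerebrum sites that had a cerebellum site within 250 nt. Every shared site passes that filter, so a rise was fixed in advance and says nothing about the overlap. With the background restricted to genes with an exonic site in both libraries, its called share was 5.90% and 9.53%. Restricted to exons of 400 nt or more, a setting chosen after seeing the data, it was 8.32% and 11%. Leaving out Nlgn3, which overlaps Gm21986 and was also chosen after seeing the data, gave called shares of 16.2% and 20.5%, within the intervals of the main values, as did the other isoforms, the union of exons, the 400-nt stop window over all 7 genes, a tolerance of 1 nt and junction limits of 150 and 300 nt. Single genes moved more with the stop window, and the middle junction range in the cerebellum went from 18.4% to 27.7%.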

Other observations

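Over 8 counts (sites in the 5′ UTR, coding sequence, 3′ UTR and introns of each library, as log2 of the count plus 1), the coding genes with the most similar site counts were ranked for Nlgn2, Nlgn3, Lrrtm2, Lrrtm3 and Lrrtm4 among 11878 genes. The nearest to Lrrtm4 were Lingo2 (Euclidean distance 1.27), Adgrl3 (1.52) and Adgrb3 (1.71), which encode adhesion proteins of neurons. Nlgn2 lay nearest to Sema4g (distance 1.24), Klf6 (1.27) and Zic1 (1.35), Nlgn3 to Zkscan2 (1.25), Zhx3 (1.56) and Tbc1d24 (1.80), Lrrtm2 to Fem1c (1.19), Zbtb38 (1.23) and Nlgn2 (1.54), and Lrrtm3 to Brinp3 (1.09), Maml3 (1.24) and Usp29 (1.32).

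At 5 sites of the 7 genes the reference base is not A. All 5 are intronic, 1 in Nlgn1 and 4 in Lrrtm4, and each was listed in 1 library. The sequences below are the reference genome (GRCm38) on the strand of the gene, with the 5-mer around the listed position in capitals, for the Nlgn1 site (chr3:25904388-25904408, minus strand, cerebrum) and for 1 of the Lrrtm4 sites (chr6:80048786-80048806, plus strand, cerebellum).
Nlgn1 intron: ctggtaaaATGAAagattgat
Lrrtm4 intron: ttctccatGGGCCtttttata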
